A study of Rattus norvegicus with 8 samples.

Results

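The 9 genes examined here act at successive steps of fatty acid metabolism. Acly, Acaca, Fasn, Scd and Me1 belong to synthesis, Acsl1 to activation, G0s2 and Lpl to storage and release, and Acadm to mitochondrial oxidation. They were selected on their known roles and on their signals in induced and uninduced cells, as seen in earlier results of these same arrays. Their differences between the groups are therefore a description and carry no test. All 22 probe sets annotated to exactly 1 of these symbols were taken, out of 8799 probe sets that represent 4737 single-symbol genes. A probe set is a group of short oligonucleotides on the array that together give 1 signal for a transcript.

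The samples were total RNA from PC12 cells, a rat line derived from an adrenal medullary tumour. All 8 came from the derivative line Htt14A2.5, which carries a truncated, mutant first exon of human huntingtin, the gene altered in Huntington's disease, under an inducible promoter. In 4 samples (induced) the transgene had been switched on with ponasterone, an insect moulting hormone analogue, for 48 h, and 4 samples (uninduced) were titled as not receiving it. The groups were taken from the titles, because the free text describes induction for every sample. No sample of a line without the transgene was used here, so ponasterone and the product of the transgene cannot be told apart as the source of a difference. Nothing in the labels tells if each replicate was its own culture or if the line is 1 clone, so errors and p-values measure only the spread between these samples. The array reads rat transcripts, and the human transgene was not measured here.

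Fatty acids are built in the cytosol from acetyl-CoA that ATP citrate lyase (Acly) cleaves from citrate. Acetyl-CoA carboxylase turns it into malonyl-CoA, fatty acid synthase extends the chain with reducing power that malic enzyme helps to supply, and stearoyl-CoA desaturase adds a double bond. Long chains are activated to acyl-CoA before they are stored as triglyceride in lipid droplets or carried into mitochondria, where acyl-CoA dehydrogenases open each round of beta-oxidation. In neurons and neuroendocrine cells these steps supply membrane lipid and, from citrate, acetyl-CoA for acetylation and transmitter synthesis.

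In induced cells the signals of Acly, Scd and Acadm were higher and those of G0s2 and Lpl were lower, while Fasn, Acaca, Me1 and Acsl1 did not pass the threshold. Of the 22 probe sets, 21 had a mean signal above the filter of 36.0 and were tested. That filter is lower than the background described in the next paragraph, so a tested probe set can lie below background. Of the 21, 9 passed the adjusted threshold of limma (adjusted p under 0.05), 5 higher and 4 lower. Across all 6129 tested probe sets 7.06% passed it, 4.10% higher and 2.97% lower. The 4 samples of a group lay entirely above or below the 4 of the other group in 10 of the 21 member probe sets, against 13.6% of all tested probe sets. Because the members were picked from this comparison, nothing is read from these counts against the background. The median log2 difference, induced minus uninduced, was 0.11 over the 21 member probe sets and -0.05 over all tested probe sets. Of all calls 58.0% were higher, and with each array centred on its median 72.6% were higher.

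The deposited signals had been scaled to a common trimmed mean of 500.8 to 500.9 on every array, and the median signal of an array ranged from 97.5 to 134.9. The 95th percentile of 38 background control probe sets, taken here as the background, ranged from 102 to 183 over the arrays. For beta-actin the 3' over 5' probe set ratio, a sign of RNA quality, was on the log2 scale -0.67 on the array of induced replicate 3 and 0.08 to 0.57 on the other 7. Without that array 5 member probe sets were still called higher and 4 lower. The same ratio for GAPDH was 0.20 to 0.50 in uninduced and 0.39 to 0.56 in induced cells, and for hexokinase it was 0.87 to 1.37 and 0.50 to 1.14. The chromaffin identity of the line was only partly visible. Of 13 chromaffin markers 11 had a probe set, and 6 were above background on all 8 arrays (Chgb, Scg2, Phox2a, Ret, Syp and Snap25). Th, the rate-limiting enzyme of catecholamine synthesis, had a mean signal of 61.1 and was above background on 1 array, and Dbh and Ddc on none, with means of 9.38 and 27.4.

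The summed signal of the chromaffin markers was 20724 to 25246 in uninduced and 20147 to 21622 in induced samples, which overlap. The sum of this list came mainly from Chgb, Phox2a and Syp, with mean signals of 11593, 4658 and 2933. Chgb had a log2 difference of 0.16 (limma adjusted p = 0.496). Within that list Phox2a (-0.70) and Syp (-0.47) fell and Ret (0.96) rose on the log2 scale, by limma's adjusted test. For adipocyte markers, of which 5 of 8 had a probe set, the sums were 3617 to 4110 and 3551 to 4562. Fabp4, Plin1 and Cfd of that list had mean signals of 3.49, 23.1 and 20.2, below background on every array, and the sum came mainly from Lep and Lipe. Sums for hepatocyte (8 of 9 genes with a probe set), fibroblast (6 of 7), leukocyte (4 of 8) and adrenal cortex markers (6 of 9) also overlapped between the groups. In uninduced and induced samples they were 489 to 778 and 419 to 829 (hepatocyte), 1407 to 1784 and 1552 to 1921 (fibroblast), 99.5 to 188 and 97.4 to 244 (leukocyte), and 160 to 292 and 103 to 254 (adrenal cortex). These sums take the brightest probe set of each gene. For the fibroblast marker Col1a1 that probe set had a log2 difference of 0.13 (limma adjusted p = 0.838), while 2 of its 3 other tested probe sets rose, by 1.05 (limma adjusted p = 0.0300) and 0.71 (limma adjusted p = 0.0244). The third gave 0.70 (limma adjusted p = 0.0711). The part of these chromaffin and fibroblast markers in the fatty acid results was not tested. In such bulk RNA, fewer cells of a type and less RNA per cell cannot be told apart.

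The promoters of the genes with the largest differences are printed first, so that the sequence at their start can be set beside the values. By the rule of size the 4 genes were G0s2, Acly, Acadm and Lpl. RefSeq promoter windows, from 250 bases before to 50 bases after the gene start, matched 6 of the 9 members, including the first 3 of these. Each is on the minus strand of GRCr8 and is written 5' to 3' in the direction of transcription. Capitals mark every match to the 8 motifs searched. The G0s2 window is chr13:107335899-107336198, with a GC content of 63.7%. The Acly window is chr10:85963582-85963881 (69.0% GC) and the Acadm window is chr2:245542815-245543114 (65.0% GC), against a median of 51.7% over 33469 promoters.
G0s2: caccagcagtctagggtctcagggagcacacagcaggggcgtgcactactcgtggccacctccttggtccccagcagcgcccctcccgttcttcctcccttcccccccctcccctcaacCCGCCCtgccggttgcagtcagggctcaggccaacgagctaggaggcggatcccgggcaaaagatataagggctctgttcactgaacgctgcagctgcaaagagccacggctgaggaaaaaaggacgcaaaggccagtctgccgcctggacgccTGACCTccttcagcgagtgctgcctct
Acly: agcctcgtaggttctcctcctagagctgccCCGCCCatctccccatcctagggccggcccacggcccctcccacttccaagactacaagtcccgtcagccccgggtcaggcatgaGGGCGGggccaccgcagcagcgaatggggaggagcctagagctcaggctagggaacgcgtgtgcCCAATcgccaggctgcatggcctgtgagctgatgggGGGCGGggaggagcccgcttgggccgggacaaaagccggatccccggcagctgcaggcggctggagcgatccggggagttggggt
Acadm: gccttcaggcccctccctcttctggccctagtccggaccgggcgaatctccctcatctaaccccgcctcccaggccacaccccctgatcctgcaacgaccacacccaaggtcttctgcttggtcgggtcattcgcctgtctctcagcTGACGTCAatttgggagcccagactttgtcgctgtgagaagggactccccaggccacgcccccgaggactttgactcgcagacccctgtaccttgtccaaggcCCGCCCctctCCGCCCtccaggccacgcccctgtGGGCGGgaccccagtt

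The motifs were searched on both strands, and matches describe letters only. The GC box (GGGCGG), the binding motif of Sp1, was present in 4 of the 6 member promoters and in 33.1% of all promoters. Acly held 3 copies, beginning at -220, -135 and -35 from the gene start, Acadm held 3, at 1, 11 and 35, G0s2 held 1, at -131, and Me1 held 5. A CCAAT box (CCAAT) was found in Acly at -71 and in Acsl1 at -95, and in 37.5% of all promoters. The Acadm promoter held the palindromic cAMP response element (TGACGTCA) at -103, a motif present in 1.83% of all promoters and in no other of the 6. G0s2 held a nuclear receptor half-site (AGGTCA, here on the opposite strand) at 24, a motif present in 16.2% of promoters. Me1 held an AP-1 site (TGANTCA) at -167, against 7.33% of promoters. None of the 6 windows held the E-box CACGTG (6.42% of promoters), the sterol regulatory element TCACNCCAC (1.12%) or the TATAAA box (14.2%).

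Acly was measured by 3 probe sets, and all of them were higher in induced cells. The signal of J05210_at was 2502.1, 2389.2, 2173.2 and 2105.3 in uninduced replicates 1 to 4, and 4665.3, 4463.3, 4606.4 and 4679.1 in induced replicates 1 to 4. The lowest induced value stood well clear of the highest uninduced value, and the induced samples lay close together. The mean went from 2292 ± 185 to 4604 ± 98.7 (SD, n = 4 each), a log2 difference of 1.01 ± 0.08 (SE), which is 2.01-fold on the scale log2(signal + 7) used for all folds. The brighter J05210_g_at, designed on the same transcript record, read 11962.9, 12139.0, 10912.6 and 8655.5 in uninduced and 19165.9, 19075.1, 18527.8 and 18139.1 in induced samples. Uninduced replicate 4 was the lowest of its group here, and the groups did not overlap. This gave a log2 difference of 0.79 ± 0.11, or 1.73-fold.

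The remaining Acly probe set, L27075_g_at, comes from another record and had a lower signal. It read 828.8, 701.2, 771.3 and 679.0 in uninduced and 1200.6, 1315.7, 1398.2 and 1159.1 in induced samples. Again every induced sample was above every uninduced sample, with a log2 difference of 0.76 ± 0.11, or 1.70-fold. The 3 intervals (95%) ran from 0.82 to 1.19, 0.56 to 1.02 and 0.53 to 1.00 and overlapped each other. Among all tested probe sets, 121 had a larger positive difference than the J05210_at probe set of Acly.

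Scd, the desaturase that makes oleate and palmitoleate from saturated chains, had a smaller difference on its measured probe set. J02585_at read 876.8, 775.0, 771.4 and 697.7 in uninduced samples. It read 1232.4, 1131.0, 977.9 and 1032.1 in induced samples. The lowest induced value, in replicate 3, lay just above the highest uninduced value, in replicate 1, so the groups were separate by a narrow margin. The mean went from 780 ± 73.6 to 1093 ± 112, a log2 difference of 0.48 ± 0.11 with an interval of 0.23 to 0.73, or 1.40-fold. The call was lost when uninduced replicate 2, 3 or 4 or induced replicate 1 or 2 was left out, although the difference then stayed between 0.42 and 0.48.

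The other Scd probe set, rc_AI175764_s_at, was near 0 on 7 of the arrays and was not tested. Its signals were 1.6, 1.4, 1.6 and 2.8 in uninduced and 2.1, 2.7, 4.3 and 35.1 in induced samples, all below background. A probe set shared by Scd, Scd2, Scd3 and Scd4 (AF036761_g_at) is assigned to no single gene. Its mean of 822 ± 148 in uninduced cells stood against 844 ± 93.0 in induced cells, with a log2 difference of 0.05 ± 0.14 (interval -0.26 to 0.36). The 2 bright probe sets that can read Scd thus gave 0.48 and 0.05, with intervals that overlap (0.23 to 0.73 for J02585_at). Only J02585_at was called, and the shared probe set cannot tell Scd from its relatives. The close relative Scd2 had a difference of 0.25 ± 0.18 on its brightest probe set (limma adjusted p = 0.516), and of 0.09, -0.08, -0.19 and 0.21 on the others, none of them called.

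Fasn, the multifunctional synthase that builds palmitate, did not pass in either direction, and both of its probe sets had small negative differences. M76767_s_at read 587.4, 556.9, 516.0 and 527.8 in uninduced and 442.9, 487.8, 476.8 and 482.2 in induced samples. All 4 induced values lay below all 4 uninduced values, yet the shift was small. On the log2 scale the difference was -0.21 ± 0.11, with an interval of -0.45 to 0.04. X13527cds_s_at read 1141.8, 930.7, 1218.9 and 1105.9 in uninduced and 868.7, 952.9, 1212.7 and 1000.6 in induced samples. The groups overlapped on this probe set, and the log2 difference was -0.13 ± 0.13 (interval -0.40 to 0.15). Both Fasn intervals lie entirely below the lower bounds of all 3 Acly intervals. Both genes were chosen with their values known, so this is a description and not a test that they differ.

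Acaca, the carboxylase that commits acetyl-CoA to fatty acids, had 1 probe set of modest signal. J03808_at read 314.7, 214.0, 240.5 and 267.1 in uninduced and 256.4, 257.3, 360.2 and 304.0 in induced samples. The groups overlapped, with induced replicate 3 the highest sample and uninduced replicate 2 the lowest. The log2 difference was 0.18 ± 0.18, and its interval of -0.21 to 0.57 was wide enough to hold both 0 and the value seen for Scd. Acacb, the mitochondrial form whose product restrains fatty acid import, had means of 115 ± 24.8 and 117 ± 15.2 and a log2 difference of 0.03 ± 0.24 (limma adjusted p = 0.973).

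Me1, the cytosolic malic enzyme that makes NADPH, was read by 5 probe sets, none of which passed the threshold. M26594_at had a mean of 1094 ± 114 in uninduced and 1184 ± 93.7 in induced cells, a log2 difference of 0.12 ± 0.11 (interval -0.13 to 0.36). For rc_AI171506_g_at the means were 1292 ± 118 and 1449 ± 162, with a difference of 0.16 ± 0.11 (interval -0.08 to 0.41). The upper ends of both intervals lie below the lower ends of all 3 Acly intervals, again a description of members chosen with their values known. For rc_AI171506_at the difference was 0.14 ± 0.17, for rc_AI008020_at it was -0.08 ± 0.13, and for rc_AI171067_at, whose signal was below background, it was 0.45 ± 0.50. The Me1 probe sets thus had 4 positive differences and 1 negative, and 2 of these signs turned when 1 array was left out (rc_AI008020_at without uninduced or induced replicate 4, rc_AI171506_at without induced replicate 1).

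**Figure D1:**
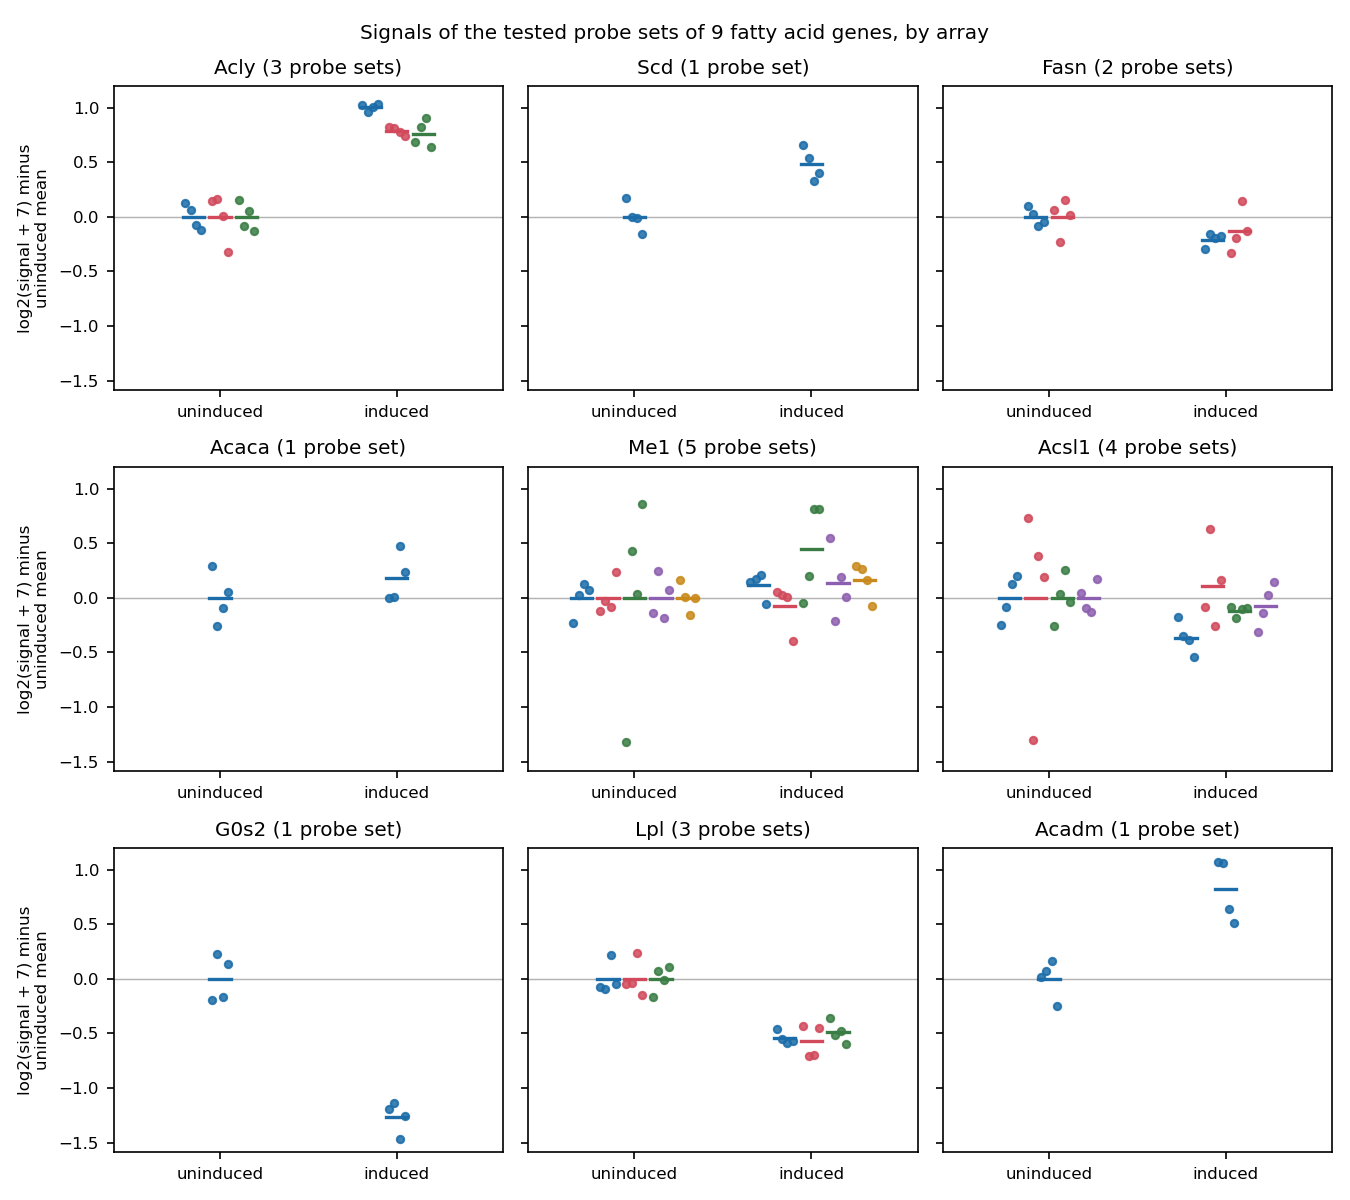
Log2(signal + 7) of the tested member probe sets on each of the 8 arrays, minus the uninduced mean of the same probe set, in 1 panel per gene; points are arrays, colours are probe sets and short bars are group means. The induced points of Acly, Scd and Acadm lie above all uninduced points of the same probe set, those of G0s2 and Lpl lie below, and those of Acaca overlap.

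Acsl1, which joins long-chain fatty acids to coenzyme A, was read by 4 probe sets with no call. D90109_at read 137.4, 154.6, 180.5 and 190.4 in uninduced and 144.7, 127.5, 124.0 and 110.4 in induced samples. The groups overlapped through uninduced replicate 1 and induced replicate 1, and several of these values were within the range of the background controls. The log2 difference was -0.37 ± 0.20 (interval -0.80 to 0.07). The brightest of the 4, rc_AI044900_s_at, had means of 312 ± 30.3 and 298 ± 41.0 and a difference of -0.07 ± 0.15 (interval -0.41 to 0.26). The 2 remaining probe sets, rc_AA893242_at and rc_AA893242_g_at, gave 0.11 ± 0.45 and -0.12 ± 0.22. The first of these was below background on every array, with means of 64.7 ± 33.7 and 63.7 ± 19.9.

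G0s2 had the largest difference of all members. Its protein inhibits adipose triglyceride lipase, the enzyme that takes the first fatty acid off stored triglyceride. The single probe set rc_AA893235_at read 650.6, 874.0, 663.4 and 819.3 in uninduced and 321.5, 335.6, 265.9 and 307.0 in induced samples. Every induced value lay far below every uninduced value and all stayed above the background. The mean went from 752 ± 112 to 307.5 ± 30.1, a log2 difference of -1.26 ± 0.14 with an interval of -1.57 to -0.96, or 2.40-fold lower. Of the 6129 tested probe sets, 28 had a larger negative difference.

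Lpl encodes lipoprotein lipase, which is secreted and frees fatty acids from circulating triglyceride for uptake. It was read by 3 probe sets, and all were lower in induced cells. L03294_at read 4709.4, 4667.1, 5765.7 and 4794.6 in uninduced and 3610.6, 3377.7, 3306.2 and 3347.3 in induced samples. Uninduced replicate 3 stood above the other 3 of its group, and the groups did not overlap. The log2 difference was -0.54 ± 0.09 (interval -0.74 to -0.35), and it was -0.47 to -0.57 when any single array was left out.

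L03294_g_at, from the same record, read 2354.4, 2379.5, 2873.4 and 2201.3 in uninduced and 1808.5, 1491.1, 1496.8 and 1781.6 in induced samples. Uninduced replicate 3 was again the highest. The log2 difference was -0.57 ± 0.11. The third probe set, rc_AI237731_s_at, read 3414.7, 4027.2, 3804.8 and 4126.1 in uninduced and 2990.0, 2687.4, 2747.7 and 2534.4 in induced samples, and here uninduced replicate 3 did not stand out. Its log2 difference of -0.49 ± 0.09 was within the intervals of the other Lpl probe sets. All 3 calls were lost when each array was centred on its median, with differences that stayed negative. The calls of L03294_g_at and rc_AI237731_s_at were also lost without the intensity trend of limma and when replicate 2 of both groups was left out.

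Acadm, the medium-chain acyl-CoA dehydrogenase of mitochondrial beta-oxidation, was higher in induced cells. J02791_at read 537.1, 560.1, 596.0 and 447.5 in uninduced and 1126.8, 1118.2, 834.8 and 762.7 in induced samples. The groups did not overlap, but the induced samples were spread, with replicates 1 and 2 above replicates 3 and 4. The mean went from 535 ± 63.3 to 961 ± 189, a log2 difference of 0.82 ± 0.15 with an interval of 0.49 to 1.16, or 1.77-fold. It was the only oxidation gene among the 9, and it rested on 1 probe set. The call was lost with median centring and when replicate 2 of both groups was left out.

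**Figure D2:**
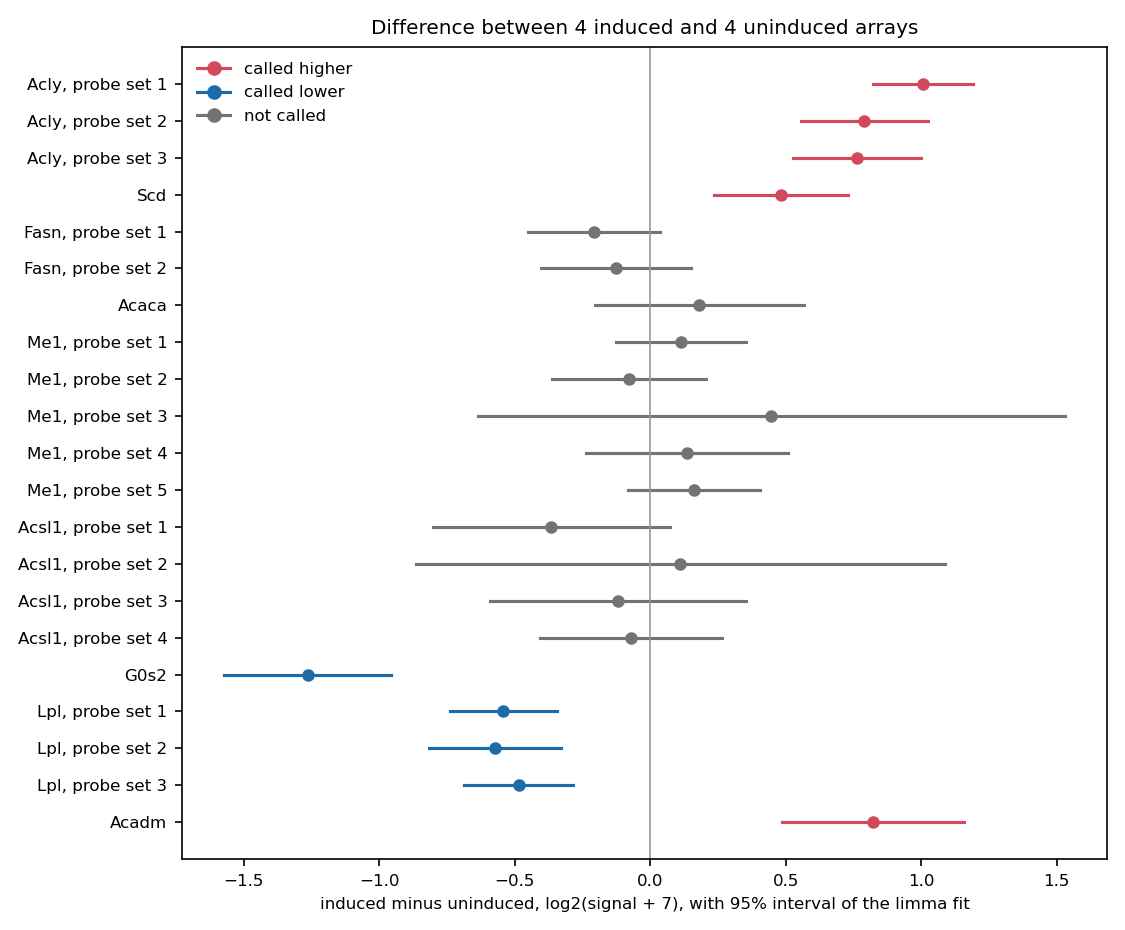
Log2 difference, induced minus uninduced, of the 21 tested member probe sets, with 95% confidence intervals from limma; 1 row per probe set, numbered in the order of their identifiers and coloured by call. All 3 Acly intervals lie above 0.5, all 3 Lpl intervals and that of G0s2 (-1.57 to -0.96) lie below 0, and the Fasn, Acaca, Me1 and Acsl1 intervals cross it.

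The rest of the fatty acid pathway was examined with 5 lists that contain none of the 9 members, using the brightest probe set of each gene. Of 165 listed genes 99 were on the array and 79 were tested. In limma's test, adjusted over all probe sets, 1 was higher (Cidea) and 1 was lower (Pc), and 11 had an unadjusted p under 0.05. Over all 3623 genes tested in this way 4.31% were higher and 2.90% lower. Of all 6129 tested probe sets, 1105 had an unadjusted p under 0.05 in limma, and nothing is read from the count of 11. The median log2 difference of the 79 genes was -0.02, with 38 positive and 41 negative, against -0.05 for all genes.

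Among genes of synthesis, 10 of 27 were tested, 0 were higher and 1 was lower, 5 had a positive and 5 a negative difference, and the median was -0.01. The gene that fell was Pc, pyruvate carboxylase, which feeds the citrate pool. Its signals were 561.9, 586.8, 411.2 and 543.2 in uninduced and 370.8, 358.4, 380.3 and 266.1 in induced samples. The groups did not overlap, although uninduced replicate 3 lay near the induced values. The log2 difference was -0.60 ± 0.16 (limma adjusted p = 0.0450). It passed in 1 of the 8 fits that left out an array, the one without uninduced replicate 3, and the other Pc probe set gave -0.50 (limma adjusted p = 0.175).

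Neighbours of Acly in citrate metabolism did not pass. Mdh1, the cytosolic malate dehydrogenase, had a difference of -0.26 ± 0.09 (limma adjusted p = 0.141) with groups that did not overlap. For Idh1, a cytosolic source of NADPH, it was 0.25 ± 0.12 (limma adjusted p = 0.331). Slc25a1, the mitochondrial citrate carrier that delivers the substrate of Acly, had means of 2690 ± 203 and 2705 ± 187, a difference of 0.01 ± 0.09 with an interval of -0.19 to 0.21. Elovl5, an elongase, had a difference of -0.05 ± 0.09.

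In the list of activation and transport, 12 of 26 genes were tested, 0 passed in either direction, 7 had a positive and 5 a negative difference, and the median was 0.02. Fabp5, a cytosolic fatty acid carrier, had means of 6065 ± 176 and 7257 ± 780, a log2 difference of 0.25 ± 0.09 (limma adjusted p = 0.139) and no overlap. Fabp6 had a difference of 0.26 ± 0.13 (limma adjusted p = 0.311). Dbi, the acyl-CoA binding protein, had a difference of -0.21 ± 0.14 (limma adjusted p = 0.482).

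In the list of storage and lipolysis, 12 of 36 genes were tested, 1 was higher and 0 were lower, 3 had a positive and 9 a negative difference, and the median was -0.14. The gene that rose was Cidea, a lipid droplet protein that promotes droplet growth. It read 415.3, 514.7, 465.3 and 399.4 in uninduced and 614.2, 583.8, 640.9 and 708.5 in induced samples, without overlap. Its log2 difference was 0.50 ± 0.13 (limma adjusted p = 0.0316), and it passed in 1 of the 8 fits that left out an array, the one without uninduced replicate 2. Soat1, which esterifies cholesterol, had a difference of 0.35 ± 0.13 (limma adjusted p = 0.159) and no overlap. Pnpla3, at 57.0 ± 24.7 and 32.2 ± 16.8 below background, had -0.72 ± 0.45 (limma adjusted p = 0.448). Of the other negative differences, those of Plin2 (-0.54), Cel (-0.10) and Pnliprp2 (-0.12) also came from signals below background on every array. Mgll (-0.17) was above background on 2 arrays. The negative median thus rests in part on signals near the floor. Dgat1, which makes triglyceride, had means of 1464 ± 128 and 1440 ± 42.5 and a difference of -0.02 ± 0.09.

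Oxidation was the list with the most tested genes, 28 of 44, and on the brightest probe sets 0 passed in either direction, with 16 positive and 12 negative differences, a median of 0.03 and 5 at an unadjusted p under 0.05 in limma. The acyl-CoA dehydrogenases of other chain lengths were on the array beside Acadm. Acadl (long chain) had a log2 difference of 0.21 ± 0.11, Acads (short chain) of 0.08 ± 0.14, and Acadvl (very long chain) of 0.40 ± 0.20, and limma's adjusted p was 0.355, 0.847 and 0.335. Their intervals were -0.03 to 0.44, -0.23 to 0.40 and -0.04 to 0.85. Acadm, with an interval of 0.49 to 1.16, was chosen with its difference known. These intervals are therefore not set against it as a test.

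Of the 5 oxidation genes with an unadjusted p under 0.05, 4 had a positive difference (Decr1, Acaa2, Etfa and Hadhb) and 1 a negative one (Ivd). These 5 of 28 tested genes stand beside 1105 of all 6129 tested probe sets at the same threshold. Neither the count nor the signs are read as a result about oxidation genes. Decr1, which handles unsaturated chains, had means of 935 ± 153 and 1217 ± 195 and a difference of 0.38 ± 0.14 (limma adjusted p = 0.174). Its other probe set gave 0.21 (limma adjusted p = 0.645). Acaa2, the thiolase of the last step, had 0.25 ± 0.10 (limma adjusted p = 0.208). Etfa, a subunit of the flavoprotein that takes electrons from these dehydrogenases, had 0.30 ± 0.13 (limma adjusted p = 0.245). On its other tested probe set it had 0.45 (limma adjusted p = 0.0977). Hadhb, a subunit of the trifunctional protein, had 0.27 ± 0.12 (limma adjusted p = 0.250). Ivd, a dehydrogenase of leucine breakdown, had -0.32 ± 0.11 (limma adjusted p = 0.123), with -0.39 and -0.21 on its other probe sets. Acat1, a thiolase of ketone body and isoleucine metabolism, had -0.21 ± 0.12 on its brightest probe set (limma adjusted p = 0.404), but another of its probe sets fell, by 0.44 (limma adjusted p = 0.0244), and a further one gave 0.56 (limma adjusted p = 0.513). Cpt1a, the gatekeeper of fatty acid import into mitochondria, had means of 1471 ± 329 and 1468 ± 202, a difference of 0.01 ± 0.16 with an interval of -0.33 to 0.36.

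Of 32 regulators 17 were tested and 0 passed, with 7 positive and 10 negative differences and a median of -0.05. Cebpb, a transcription factor of fat cell differentiation, came nearest, with means of 852 ± 71.5 and 1132 ± 122, a log2 difference of 0.40 ± 0.11 (limma adjusted p = 0.0512) and no overlap. Its other probe set gave 0.39 (limma adjusted p = 0.190). Nr1h3 and Nr1h2, the oxysterol receptors LXR alpha and beta, had 0.34 ± 0.19 (limma adjusted p = 0.392) and -0.23 ± 0.13 (limma adjusted p = 0.388). The other Nr1h2 probe set gave -0.04 (limma adjusted p = 0.985). Srebf1, the sterol-regulated activator of synthesis genes including Acly, Fasn and Scd, had means of 663 ± 115 and 634 ± 76.5 and a difference of -0.05 ± 0.15, with an interval of -0.37 to 0.27. Insig1, which holds that pathway back, had a difference of -0.07 ± 0.12 (interval -0.33 to 0.19), and -0.26 on its other probe set (limma adjusted p = 0.326).

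**Figure D3:**
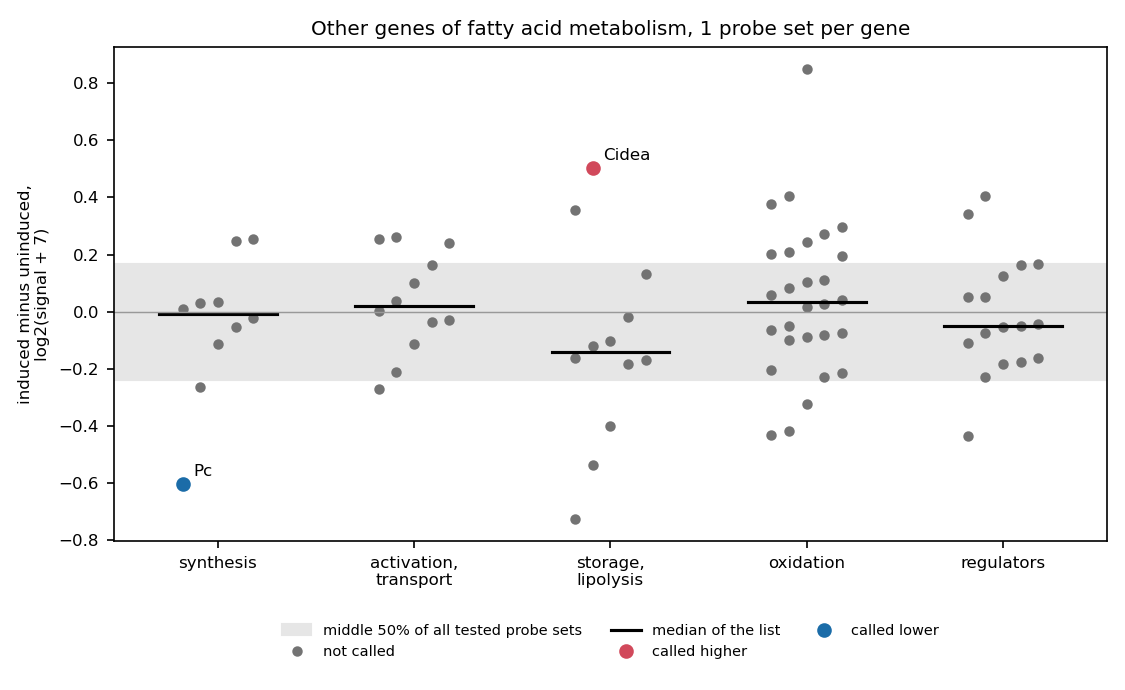
Log2 difference, induced minus uninduced, of the tested genes of 5 pathway lists that exclude the members; 1 point per gene on its brightest probe set, black bars are list medians, and the grey band holds the middle 50% of all tested probe sets (-0.24 to 0.17). The medians lie between -0.14 (storage and lipolysis) and 0.03 (oxidation), and of 79 genes Cidea and Pc are the coloured points past the threshold.

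The genes whose pattern over the 8 arrays was most like that of Acly were named by their Pearson correlation of log2 signal with J05210_g_at. They were Pea15 (r = 0.98), Hspb1 (r = 0.98) and Napa (r = 0.98), over 8 arrays that form 2 groups, so the correlations carry the group difference. Their own differences were 0.65, 1.26 and 0.27. For Lpl (L03294_at) the closest were Ndufa4l2 (r = 0.98), Dnmt1 (r = 0.98) and Wdr62 (r = 0.97), with differences of -0.93, -0.72 and -0.69.

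**Figure D4:**
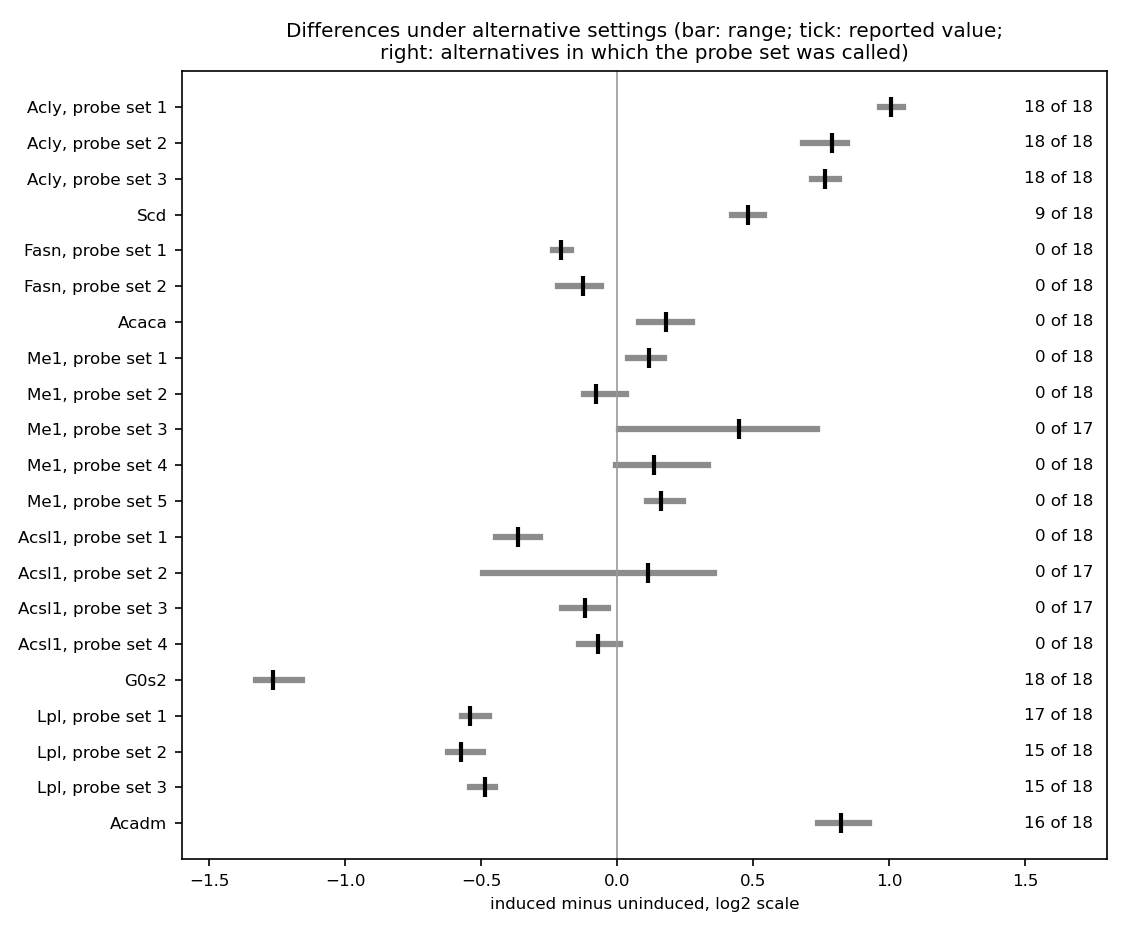
Log2 difference of each tested member probe set as reported (black tick) and its range over the alternative settings (grey bar); the numbers at the right count the alternatives in which it was called. The Acly and G0s2 bars stay on one side of 0 and were called in 18 of 18, and the Scd bar runs from 0.42 to 0.54 and was called in 9 of 18.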

How the data were processed

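Total RNA of 4 induced and 4 uninduced samples was hybridised to rat expression arrays. The values are intensities (1 linear signal per probe set) as deposited, and for the authors' program and scaling the sources used here give no name. The signals were found here to share 1 trimmed mean, so no further scaling was applied. Gene names came from the array's annotation table: 7018 probe sets had 1 symbol, 308 several and 1473 none, and 6994 of the first matched a gene of the RefSeq list. After 59 control probe sets and 2611 with a mean signal under the 30th percentile (36.0) were left out, 6129 were tested on log2(signal + 7) with limma 3.58.1 in R 4.3.3 (lmFit, eBayes with an intensity trend, Benjamini-Hochberg over all 6129). The test was checked on simulated data. The number of arrays limits the precision. Promoters came from RefSeq tables of GRCr8, and Fasn, Acaca and Lpl are named without one.

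The members and gene lists were chosen with earlier results of these data known. Named pathway genes are those past the threshold, the 3 with the lowest p in each list, and Scd2 and Acacb. Genes named for a like pattern are the 3 with the highest Pearson correlation with the brightest probe set of Acly and of Lpl. Further pathway genes (Slc25a1, Elovl5, Dgat1, Plin2, Cel, Pnliprp2, Mgll, Acadl, Acads, Acadvl, Cpt1a, Etfa, Hadhb, Acat1, Srebf1 and Insig1) and the marker Col1a1 were named after their values were seen. Alternatives changed the constant, the filter, the scaling, the variance model, the replicate block, the probe set used and the arrays included.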

Additional observations from a re-analysis of the deposited data

Results flagged for a closer look

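A sample was looked at again when it stood apart from the other 3 of its group by more than Dixon's 95% critical value for 4 samples (the gap to its nearest neighbour over the range of the group). Of 78 groups of 4 values examined, 7 held such a sample, and chance alone gives about 1 in 20.

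For Lpl, L03294_at read 5765.7 in uninduced replicate 3, above the 4667.1 to 4794.6 of the others. Without that array the probe set was still called lower. For Me1, rc_AI008020_at read 769.9 in induced replicate 4, below the 1023.6 to 1055.8 of the others. For Acsl1, rc_AA893242_g_at read 101.3 in induced replicate 2, against 107.8 to 109.1, a gap of a few units in a group of small spread. The dim Scd probe set rc_AI175764_s_at stood apart in replicate 4 of both groups, with 2.8 against 1.4 to 1.6 in uninduced and 35.1 against 2.1 to 4.3 in induced samples, all below background. Decr1 (D00569_g_at) read 1163 in uninduced replicate 2, against 835.1 to 874.1. Nr1h2 (U14533_at) read 840.9 in uninduced replicate 4, against 1157.7 to 1221.6.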

How the results depend on the processing

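As reported, 251 probe sets were higher and 182 lower, 5 and 4 of them members, and 1 pathway gene was higher and 1 lower. The 9 called member probe sets kept the sign of their difference in all 18 alternative settings, but some of these calls were lost. Acly (3 probe sets) and G0s2 were called in all 18. For Acsl1, rc_AA893242_at ran from -0.49 to 0.36 and kept its sign in 14 of 17 settings. The sign of rc_AI044900_s_at was kept in 17 of 18. With median centring of each array the calls were 167 higher and 63 lower, 3 and 1 of them members, and 0 and 0 pathway genes. Without replicate 2 of both groups they were 141 and 80, members 3 and 2, pathway genes 0 and 0. Without the intensity trend 101 were lower, 2 of them members, with 0 and 0 pathway genes. Pathway genes called lower were 0 with no filter on low signal, with quantile normalization (2 higher) and with centring on the tested probe sets, a setting chosen after seeing the data. With the filter at the 50th percentile 2 were higher, and averaging all probe sets of a gene made 2 higher, Cidea and Cebpb. The cause of these changes was not tested.

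With the replicate block 218 probe sets were higher and 149 lower, the members stayed at 5 and 4, and pathway genes went to 0 and 0. The deviations of same-numbered arrays from their group means had correlations of -0.14, 0.06, -0.09 and 0.19, so the numbers were not taken to pair the samples.

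When 1 array was left out, 191 to 244 probe sets were higher and 112 to 164 lower. The lower calls were 112 without uninduced replicate 3 and 119 without uninduced replicate 2, both more than 1.5 times below 182. Pathway genes numbered 0 to 1 in each direction. Acacb changed sign in these fits, from -0.10 to 0.12. Signals near the background controls, as for Acsl1, Acacb, Pnpla3 and 1 Me1 probe set, limit what the intervals can show.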

Other observations

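These genes were chosen after their values were seen. On the brightest probe set of each, some genes better known from fat or gut gave signals above background on all 8 arrays. The brightest Lep probe set had means of 3165 ± 210 in uninduced and 3458 ± 333 in induced samples (SD, n = 4 each), a log2 difference of 0.12 ± 0.09 (SE). The other 2 Lep probe sets gave 0.08 and 0.08, and neither was called. Fabp6 had means of 5214 ± 500 and 6307 ± 1217 on its brightest probe set, and its other probe set had too little signal to be tested. Pparg, the transcription factor of fat cells, had a mean signal of 20.6, and the fatty acid transporter Cd36 had 12.3, both below background on every array.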
